A study of Rattus norvegicus with 4 samples.

Results

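Smooth muscle contractile genes were described in mucosa scraped from the oxyntic part of the stomach, where acid is made, of female Sprague-Dawley rats. The 10 genes Acta2, Actg2, Myh11, Myl9, Mylk, Tpm1, Tpm2, Cnn1, Tagln and Des were chosen by name, and every probe set that the platform annotation gives to 1 of them alone was taken, which made 15 of the 15866 probe sets on the chip. Of the 10411 genes with a probe set of their own, these 10 are the members. Tpm1 has 6 probe sets and each other gene has 1. A further 3 probe sets name Acta2 together with Actc1, the cardiac actin, and were kept apart. The octreotide LAR group was 3 Affymetrix RAE230A chips, each with RNA pooled from 2 rats given octreotide LAR, a slow-release depot of a somatostatin analogue, at 5 mg per animal. The vehicle group was 1 chip with RNA pooled from 8 rats given the LAR vehicle. All rats were labelled as 8 weeks old, the titles give 21 days for both groups, and all were fasted overnight and anaesthetised with fentanyl, haloperidol and midazolam. The treated chips are called pools 1, 2 and 3. The vehicle group is a single pool with no replicate. Its tissue is labelled as corpus mucosa, although its title gives oxyntic mucosa, as do those of the treated chips. Its source name also mentions octreotide LAR although its title gives the vehicle.

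Smooth muscle contracts when calcium, bound to calmodulin, activates myosin light chain kinase, which phosphorylates the regulatory light chain and lets the myosin motor pull on actin filaments. In the stomach a thin sheet of such muscle, the muscularis mucosae, lies under the glands, and strands of it run up between them. The same proteins are made in the outer muscle coat and in vessel walls, so these transcripts do not tell the layer of muscle in a scrape. What other cells of the scrape added to these signals was not tested. In RNA of a whole scrape, fewer muscle cells and less RNA per muscle cell cannot be told apart.

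Contractile transcripts lay close to the vehicle level after octreotide LAR. Taking the brightest probe set of each gene, the mean of the 3 treated pools lay between 0.898-fold and 1.13-fold of the vehicle chip for all 10 genes. On the log2 scale, 6 genes had a positive difference (beside 49.4% of all tested probe sets) and 4 a negative one, with a median of 0.0061, beside a median of -0.0031 over all 9520 probe sets tested. In the limma test with Benjamini-Hochberg adjustment, 0 of the 13 contractile probe sets bright enough to be tested passed an adjusted p of 0.05, and 0 had an unadjusted p under 0.05. Over all probe sets tested, 10 passed (0.105%), 9 of them higher (0.0945%) and 1 lower (0.0105%), and 435 (4.57%) had an unadjusted p under 0.05. The 95% intervals of the 10 genes lay between 0.671-fold and 1.43-fold. These bounds are not limits of detection, since larger differences could also miss the adjusted threshold. Klf4, described further on, was at 1.57-fold and did not pass. Such a result does not show that the groups were alike, and the spread came from the treated chips alone. The fit also drew each spread toward that of other probe sets of similar level. That part had a weight of 11.5 degrees of freedom, beside 2 from the chips of the probe set itself. The intervals thus rest in large part on other probe sets.

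The actins form the thin filament. Acta2, the alpha actin of vascular and visceral smooth muscle, had signals of 6336.5, 5694 and 5174 in pools 1, 2 and 3, against 5987 on the vehicle chip. The vehicle signal lay inside the treated range, under pool 1 and over the other pools. Its treated mean was 5735 ± 582 (SD, n = 3), and the log2 difference was -0.07 (95% interval -0.42 to 0.29). Actg2, the gamma actin that predominates in muscle of the gut wall, had 16477, 17305 and 12484 in pools 1 to 3, against 15387 on the vehicle chip. Pool 3 was the low chip here, and the vehicle signal again lay between the treated ones. The treated mean of Actg2 was 15422 ± 2578 (SD, n = 3), and the log2 difference was -0.011 (95% interval -0.41 to 0.38).

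The promoter window of Acta2 is shown because smooth muscle genes are known as targets of serum response factor, which binds the CArG box, and this was the single window among the members with any match. The sequence is from RefSeq, build GRCr8, chr1:241172454-241172753, minus strand, and runs from 250 bases before the annotated start of the gene to 50 after it. Capitals mark both matches.
Acta2: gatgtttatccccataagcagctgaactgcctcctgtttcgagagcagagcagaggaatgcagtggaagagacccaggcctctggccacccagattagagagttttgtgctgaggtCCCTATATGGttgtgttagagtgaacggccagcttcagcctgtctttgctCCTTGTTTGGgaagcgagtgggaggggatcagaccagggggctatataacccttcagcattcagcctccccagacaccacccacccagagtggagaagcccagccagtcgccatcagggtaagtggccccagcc
Windows were given for 7 of the 10 members (Acta2, Actg2, Tpm1, Tpm2, Cnn1, Des and Mylk). The CArG box, read on both strands, which are equivalent for this palindromic pattern, had 0 matches in the 7 windows, and 1.64% of all 33469 windows of the same length hold one. The search was then widened, after that count was seen, to let 1 base of the A and T core be any base. This gave the matches in Acta2, which begin 134 and 84 bases before the annotated start, and 9.42% of all windows hold such a match. These letters are a description of the windows and do not show binding.

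**Figure D1:**
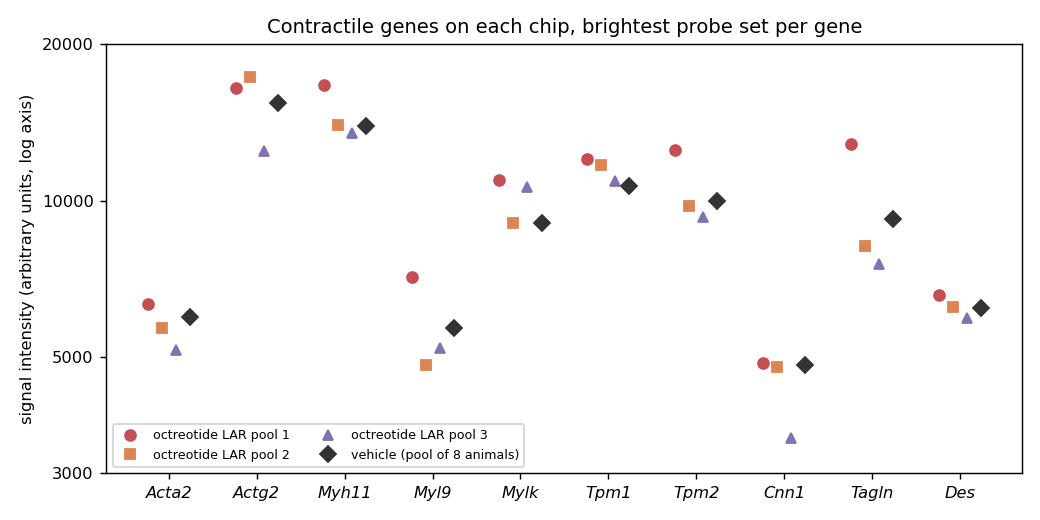
Signal intensity (arbitrary units, log axis) of the brightest probe set of each of the 10 contractile genes, in octreotide LAR pools 1, 2 and 3 and on the vehicle chip. Each point is 1 chip; pool 1 is the highest treated chip for 9 genes, and the vehicle signal lies inside the treated range for 8 genes and below it for Mylk and Tpm1.

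Myosin and its switch make up the motor. Myh11, the smooth muscle myosin heavy chain, had 16684, 13957 and 13492.5 in pools 1 to 3, against 13921.5 on the vehicle chip. Pools 2 and 3 thus sat on either side of the vehicle value and pool 1 stood above. The treated mean was 14711 ± 1724 (SD, n = 3), and the log2 difference was 0.07 (95% interval -0.28 to 0.42). Myl9, the regulatory light chain whose phosphorylation starts contraction, had 7127, 4844 and 5214 in pools 1 to 3, against 5685 on the vehicle chip. Its highest treated signal was 1.47 times its lowest, and the vehicle signal fell between them. The treated mean of Myl9 was 5728 ± 1225 (SD, n = 3), and the log2 difference was -0.0097 (95% interval -0.44 to 0.42).

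Mylk, the calmodulin-activated kinase of that light chain, was 1 of the 2 genes whose vehicle signal lay outside the treated range. Its signals were 10974, 9078 and 10641 in pools 1 to 3, against 9053 on the vehicle chip. All treated chips were above the vehicle chip, pool 2 by very little. The treated mean was 10231 ± 1012 (SD, n = 3), and the log2 difference of 0.17 was the largest among the 10 genes, with an interval from -0.18 to 0.52 and a limma adjusted p of 0.9998 (unadjusted p = 0.31). Over all tested probe sets, the vehicle value lay outside the treated range for 48.9%: below every treated chip for 25.0% and above every one for 24.0%. Among the 376 bright probe sets it lay outside for 53.2%. These are the probe sets at or above the mean signal of the dimmest member (4501, a level chosen after the values were seen). The share of 2 of 10 genes was smaller than either background, but the genes share the same chips and this share was not tested.

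Tropomyosins lie along actin and steady the filament. Tpm2 had 12537, 9769 and 9302 in pools 1 to 3, against 9988 on the vehicle chip. Only pool 1 exceeded the vehicle chip. Its treated mean was 10536 ± 1749 (SD, n = 3), and the log2 difference was 0.06 (95% interval -0.32 to 0.45). Tpm1 was read by 6 probe sets that differ in what they detect, since one gene yields several tropomyosins by alternative splicing. Affymetrix uses the suffix a_at for probe sets that match several transcripts of a gene and x_at for those with probes that may match other genes. The brightest, 1370287_a_at, had 12013, 11709 and 10902 in pools 1 to 3, against 10660.5 on the vehicle chip. All treated chips lay above the vehicle chip, and the highest treated signal was 1.10 times the lowest. The treated mean of this probe set was 11541 ± 574 (SD, n = 3), and the log2 difference was 0.11 (95% interval -0.21 to 0.44).

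The other Tpm1 probe sets did not move in step with it. On 1370288_a_at the signals were 4867.5, 3345 and 3445 in pools 1 to 3, against 3917 on the vehicle chip, so pool 1 was high and the other pools low. The pattern was turned round on 1368724_a_at, with 365.6, 563.3 and 493.1 in pools 1 to 3, against 520.9 on the vehicle chip. There pool 1 was the lowest chip. The dim 1371241_x_at had 152.2, 160.5 and 158.4 in pools 1 to 3, against 181.5 on the vehicle chip, so the vehicle chip was the highest. The log2 differences of these 3 probe sets were -0.03, -0.15 and -0.19, and none passed the limma test (adjusted p = 0.9998 each). The last pair, 1370513_at and 1371240_at, lay under the level of 144.7 required for testing. On 1370513_at the signals were 115.5, 59.4 and 35.7 in pools 1 to 3, against 145.8 on the vehicle chip. On 1371240_at they were 75.1, 168.3 and 48.7 in pools 1 to 3, against 67.6 on the vehicle chip. At such signals a chip-to-chip difference cannot be read as a change of the gene.

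**Figure D2:**
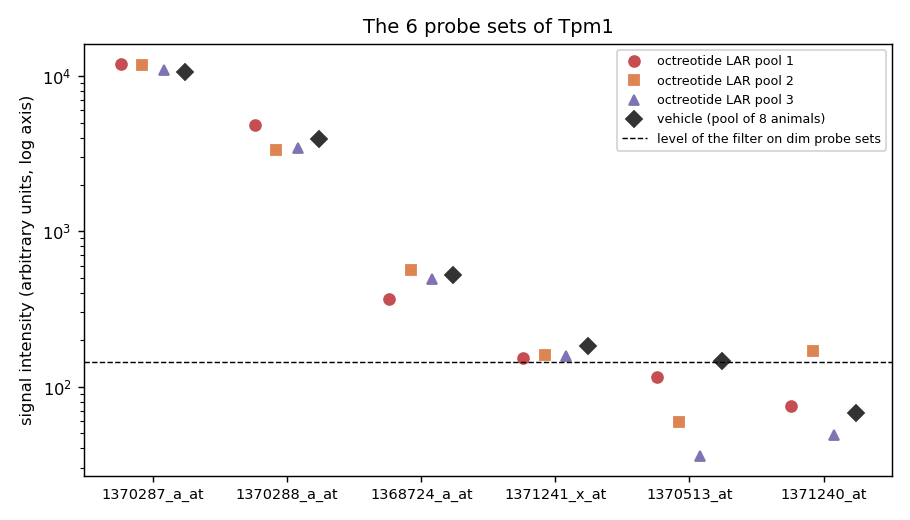
Signal intensity (arbitrary units, log axis) of the 6 Tpm1 probe sets in octreotide LAR pools 1, 2 and 3 and on the vehicle chip, 1 point per chip, with the filter level of 144.7 as a dashed line. Pool 1 is the highest chip on the brightest 2 probe sets and the lowest on 1368724_a_at and 1371241_x_at.

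Among the actin-binding regulators, Cnn1, the calponin that restrains the myosin motor on actin, had 4871, 4796 and 3502 in pools 1 to 3, against 4835 on the vehicle chip. Pools 1 and 2 matched the vehicle chip closely, and pool 3 alone was low. The treated mean was 4389 ± 769 (SD, n = 3), and the log2 difference was -0.15 (95% interval -0.58 to 0.27), the lowest of the 10 genes. Tagln, transgelin or SM22, an early marker of smooth muscle, had 12852.5, 8189 and 7556 in pools 1 to 3, against 9237.5 on the vehicle chip. It varied most among the treated pools, 1.70 times from lowest to highest. Its treated mean was 9532.5 ± 2893 (SD, n = 3), and the log2 difference of 0.0043 had an interval from -0.50 to 0.51. Without pool 1 the log2 difference of Tagln was -0.23.

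Des encodes desmin, the intermediate filament that ties dense bodies together. Its signals were 6594, 6238.5 and 5954 in pools 1 to 3, against 6222 on the vehicle chip. These were among the steadiest values of all members, with a vehicle signal inside the treated range. The treated mean was 6262 ± 321 (SD, n = 3), and the log2 difference was 0.0079 (95% interval -0.33 to 0.34).

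The probe sets that name Acta2 together with Actc1 were dim and cannot be given to either gene. On 1370856_at the signals were 174.7, 318.3 and 149.7 in pools 1 to 3, against 245.5 on the vehicle chip, and it was the only one of the 3 bright enough to be tested (limma adjusted p = 0.9998). The treated signals ranged from 27.3 to 83.6 on 1374352_at, against 235.4 on the vehicle chip, and from 4.3 to 50.1 on 1374353_x_at, against 39.8 on the vehicle chip. They add nothing to the bright Acta2 probe set.

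**Figure D3:**
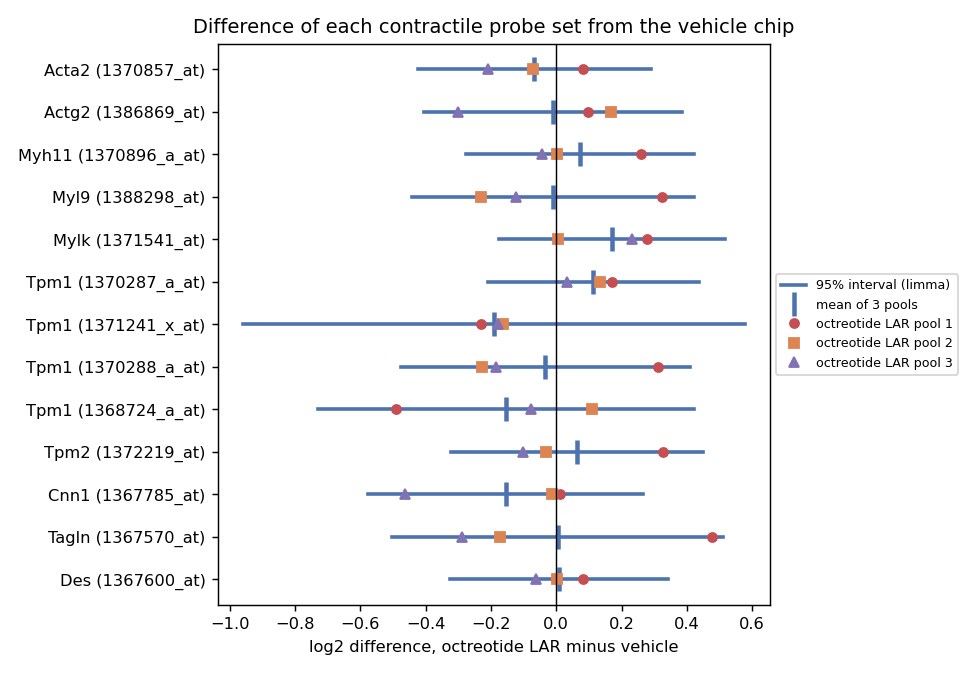
Log2 difference, octreotide LAR minus vehicle, of the 13 contractile probe sets tested: points are pools 1, 2 and 3, the vertical tick is their mean and the bar its 95% limma interval. Every interval includes 0; the widest belongs to the dim 1371241_x_at, from -0.96 to 0.58.

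In the 10 contractile genes the treated pools differed from each other. Pool 1 lay above the vehicle chip for 10 of 10 genes (8 of 10 after quantile normalization), pool 2 for 5 and pool 3 for 2. Over all tested probe sets these shares were 49.5%, 50.5% and 50.9% for pools 1, 2 and 3. Among the 376 bright probe sets they were 67.0%, 53.5% and 51.1%, so bright transcripts in general leaned upward in pool 1. The median log2 difference of the 10 genes was 0.22 in pool 1, -0.0040 in pool 2 and -0.11 in pool 3. Over those 376 bright probe sets it was 0.08, 0.016 and 0.0061. Quantile normalization, which gives every chip the same distribution, brought the median of the 10 genes in pool 1 to 0.11, with -0.0056 in pool 2 and -0.13 in pool 3.

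Pool 1 was the highest treated chip for 9 of the 10 genes, all but Actg2, and pool 3 the lowest for 8, all but Myl9 and Mylk. The shares over all tested probe sets were 34.2% and 30.5%, and over the bright ones 54.5% and 39.4%. From pool 3 to pool 1 the log2 difference had a median of 0.35 and ran from 0.04 for Mylk to 0.77 for Tagln. Summed over the 10 genes, the signal was 106465 in pool 1, 91579 in pool 2 and 84221 in pool 3, against 90975 on the vehicle chip. The vehicle pool, which averages the most animals, thus lay between pools 2 and 3. These differences between pools rest on 1 chip each and carry no test.

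Within a pool the members kept step only in part. In pool 1 their log2 differences from the vehicle chip ran from 0.011 for Cnn1 to 0.48 for Tagln. In pool 2 they ran from -0.23 for Myl9 to 0.17 for Actg2, and in pool 3 from -0.46 for Cnn1 to 0.23 for Mylk. Cnn1 and Mylk stood farthest from the other members in pool 3, at -0.35 and 0.35 from the median of the 10. Tagln stood farthest in pool 1, 0.26 above that median. Myh11 stayed within 0.07 of it in every pool, the closest of all members. Acta2 and Cnn1 were below it in all 3 pools, Acta2 by 0.07 to 0.13 and Cnn1 by 0.0077 to 0.35.

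**Figure D4:**
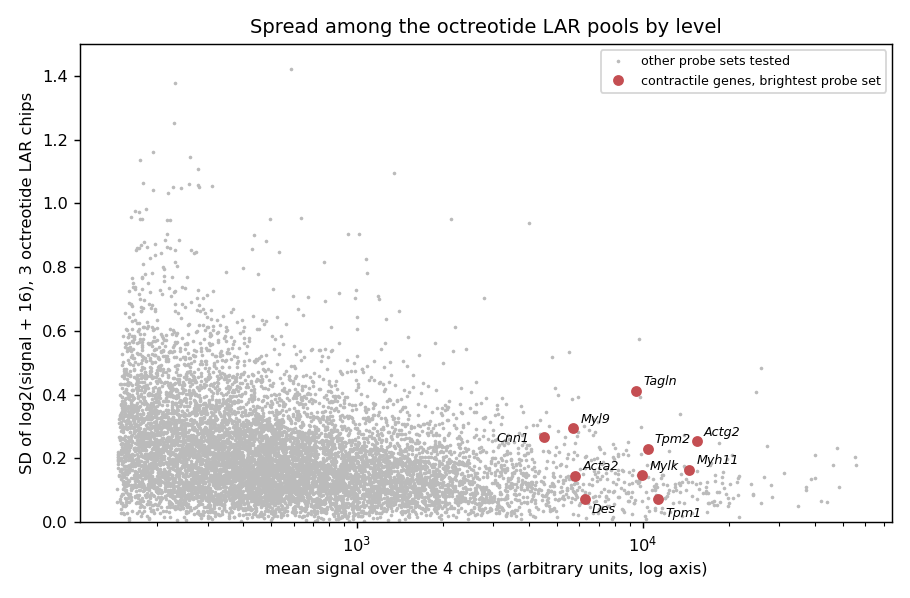
SD of log2(signal + 16) over the 3 octreotide LAR chips against the mean signal over all 4 chips (arbitrary units, log axis), 1 point per tested probe set, with the 10 contractile genes in red. Tagln has the highest SD of the 10 at 0.41, and Tpm1 and Des the lowest at 0.07.

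The SD of a member among the treated pools, on the log2 scale, had a median of 0.20 and ran from 0.07 for Tpm1 and Des to 0.41 for Tagln. The median was 0.18 over all tested probe sets and 0.12 over the 376 bright ones, and 8 of the 10 genes lay above that of the bright ones. Leaving out pool 1 brought the median SD of the members to 0.078, leaving out pool 2 to 0.25 and leaving out pool 3 to 0.15. These SDs are over the 2 treated chips left, so they cannot be set directly against the values over all treated chips. Pool 1 was not the chip apart for every gene, since pool 3 stood apart for Actg2, Cnn1 and Tpm1 and pool 2 for Mylk.

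Other genes of the contractile apparatus and its control showed no call either. In a list of further contractile and regulatory genes, 22 of the 24 on the chip were tested, 12 were above and 10 below the vehicle chip in the mean, and the median log2 difference was 0.09. Ppp1r12a, the targeting subunit of the phosphatase that relaxes smooth muscle, had 753.4, 1470.5 and 1068 in pools 1 to 3, against 643.0 on the vehicle chip. All treated chips were higher, but the log2 difference of 0.71 did not pass (unadjusted p = 0.028, limma adjusted p = 0.9998). It passed without pool 1 (log2 difference 0.95, limma adjusted p = 0.0069), a fit with 2 treated chips. Calm2, which encodes calmodulin, had a log2 difference of -0.24, and Ppp1cb, the catalytic partner of Ppp1r12a, one of 0.31. Smtn, the actin-binding smoothelin of contractile muscle, had 1761, 1220 and 1231 in pools 1 to 3, against 1088 on the vehicle chip, a log2 difference of 0.34 that did not pass.

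Dense plaques and dense bodies anchor the filaments to the membrane and to each other. Of the 26 genes tested in that list, 20 were above the vehicle chip in the mean and 12 of them in every pool, beside 49.4% and 25.0% of all tested probe sets. In the limma test 0 passed, with 1 at an unadjusted p under 0.05. The median log2 difference was 0.07. That gene was Flnc, a filamin that crosslinks actin, with 591.3, 731.2 and 593.3 in pools 1 to 3, against 400.8 on the vehicle chip (log2 difference 0.64, limma adjusted p = 0.987). Fhl1, a LIM protein of muscle, had 6415.5, 7921 and 7539 in pools 1 to 3, against 5892 on the vehicle chip. Actn1, an alpha-actinin, had 2917.5, 3835 and 3334 in pools 1 to 3, against 2806 on the vehicle chip. Both were lowest in pool 1 among the treated chips, but the list was not uniform in this. Flna, its brightest gene, and Tns1 were highest in pool 1, as were most contractile members.

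Channels, receptors and second messengers of smooth muscle were mostly too dim to test. Only 8 of 19 passed the level filter, their median log2 difference was 0.013, and 0 were called. Cacna1c, the pore of the L-type calcium channel, had 215.1, 187.9 and 227.6 in pools 1 to 3, against 150.8 on the vehicle chip. Tacr2, a tachykinin receptor of gut muscle, had 858.3 in pool 1 but 264.4 and 320.6 in pools 2 and 3, against 476.3 on the vehicle chip. The transcription factor list had 7 of 9 genes tested, a median log2 difference of 0.14 and 0 calls. Srf, the serum response factor, had 1032, 1046 and 798.4 in pools 1 to 3, against 1107 on the vehicle chip, a log2 difference of -0.21 (limma adjusted p = 0.9998). Mrtfa, one of its cofactors, had 499.5, 552.4 and 594.7 in pools 1 to 3, against 496.1 on the vehicle chip.

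The order of pools seen for the 10 contractile genes was not that of the other smooth muscle lists. Median log2 differences in pools 1, 2 and 3 were 0.12, -0.0056 and 0.04 for the further contractile genes and 0.10, 0.16 and 0.18 for the dense plaque genes. They were 0.10, 0.011 and 0.02 for the channels and receptors and 0.0095, 0.17 and 0.10 for the transcription factors. In pool 3 none of these 4 medians lay below the vehicle chip.

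Klf4, a factor known both as a repressor of smooth muscle genes and as a gene of surface epithelia, came nearest to the threshold in the muscle lists. It had 3094.5, 3686 and 3231 in pools 1 to 3, against 2116 on the vehicle chip. All treated chips were higher, with a log2 difference of 0.65 and an interval from 0.28 to 1.02, yet it did not pass over all probe sets (unadjusted p = 0.0022, limma adjusted p = 0.444). It passed without pool 1 (log2 difference 0.70, limma adjusted p = 0.019). These chips also had higher squamous epithelial genes (5 called, with their medians given further on), and their part in the value of Klf4 was not tested.

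Cells that lie beside muscle in the mucosa gave a reading close to that of the contractile genes. The list of fibroblast genes and collagens had 19 of 19 genes tested, 9 above and 10 below the vehicle chip, and a median log2 difference of -0.0009. In pools 1, 2 and 3 that median was 0.09, -0.03 and 0.08, so the order of pools seen for the 10 contractile genes was not repeated. Dcn, the proteoglycan decorin, had 23018, 21161 and 20554.5 in pools 1 to 3, against 21566 on the vehicle chip. Endothelial genes had medians of 0.12, -0.06 and 0.013 over 8 genes, and pericyte genes -0.03, 0.11 and -0.03 over 8. In none of these lists was a gene called.

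Markers of other cells of the gut wall and of other muscle types were mostly dim. Of the enteric neuron and glia list, 6 of 14 genes were tested, with median log2 differences of 0.18, -0.012 and -0.11 in pools 1, 2 and 3. These medians have the same order as those of the contractile genes, but most of the 6 genes did not follow it. Prph did, while Nos1 was highest in pool 2. In the mean of the treated pools, 2 of the 6 genes were above and 4 below the vehicle chip, with a median log2 difference of -0.09. The part of this list in the contractile values was not tested. The sum over the 14 genes was 2437, 2326 and 2269 in pools 1 to 3, against 2136 on the vehicle chip. It includes the genes too dim to test, so it cannot be read as a rise of this list. Kit, the single gene on the chip from the list of interstitial cells of Cajal, the pacemakers of the outer muscle coat, had signals of 17.0 to 77.1 on the treated chips, against 112.8 on the vehicle chip, all under the filter. Skeletal muscle genes were tested for 4 of 20 and heart muscle genes for 0 of 6. Myh1, a myosin of fast skeletal fibres read here by an x_at probe set, had 2664, 3034 and 1944 in pools 1 to 3, against 3353 on the vehicle chip, and Acta1, the skeletal alpha actin, had 716.6, 745.2 and 580.8 in pools 1 to 3, against 619.9 on the vehicle chip. Myh2 and Myh4, its neighbours in the same family, had at most 58.6 on any chip.

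Some epithelial lists, but not all, held called genes on the same chips on which the contractile genes lay near the vehicle level. Squamous forestomach genes had median log2 differences of 1.98, 1.53 and 1.38 in pools 1, 2 and 3 (11 genes tested, 5 called higher). The contractile medians had the same order of pools, at 0.22, -0.0040 and -0.11. Single squamous genes did not all follow it. Among the 5 called, Krt1, Krtdap and Sprr3 did, while Krt10 was highest in pool 2 and Lgals7 in pool 3. A relation between these lists was not tested. Genes of enterochromaffin-like cells, the histamine cells of the oxyntic glands, were at -0.53, -0.76 and -0.74 (8 genes tested, 1 called lower, Hdc). Chief cell genes were at -0.55, -0.11 and -0.11, and parietal cell genes at 0.09, -0.22 and -0.14, with no call in either list. Surface mucous cell genes were at 0.25, 0.29 and 0.25, also with no call. All these comparisons share the 1 vehicle chip. In the parietal list, Atp4a, a proton pump subunit, had 28932, 26680 and 23835 in pools 1 to 3, against 26692.5 on the vehicle chip. Not every gene of that list was bright enough to be tested. Whether the tissue label fits each chip was not tested.

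**Figure D5:**
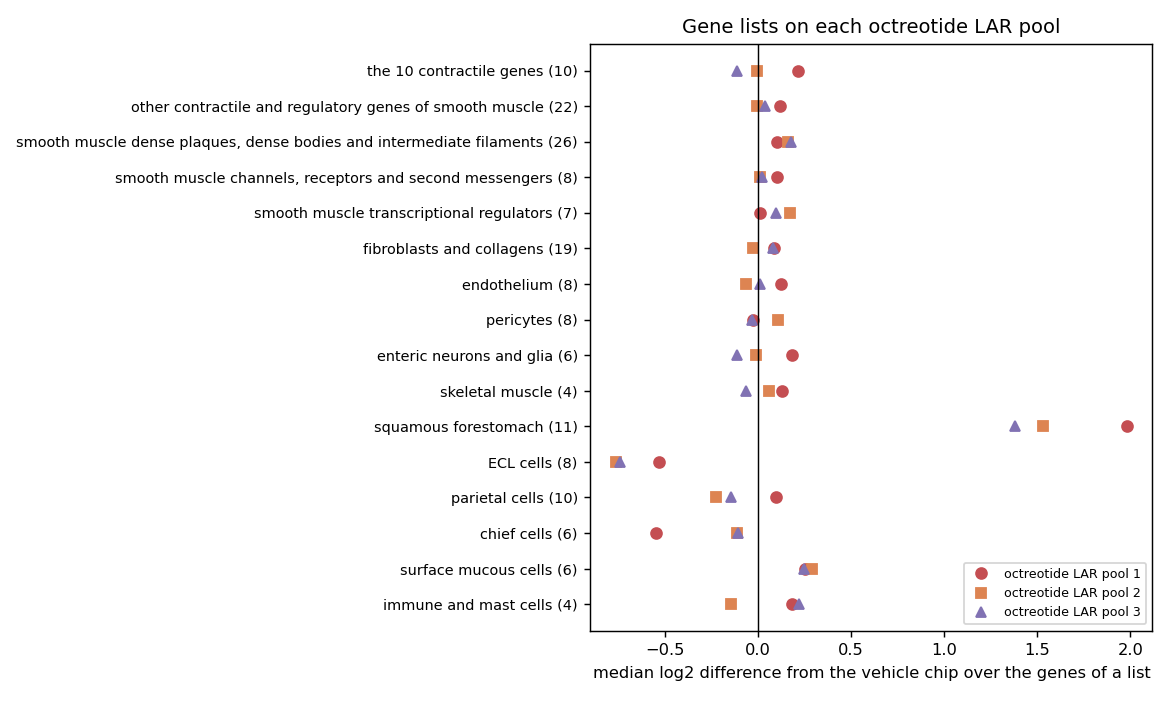
Median log2 difference from the vehicle chip over the tested genes of each list (number in parentheses), for octreotide LAR pools 1, 2 and 3. The contractile genes lie between -0.11 and 0.22, near the other muscle and connective tissue lists, while squamous genes lie at 1.38 to 1.98 and enterochromaffin-like (ECL) cell genes at -0.76 to -0.53.

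Genes whose course over the 4 chips was most like that of the contractile median were picked among 6277 probe sets of other genes with at least its range of 0.27. Likeness was the root mean square difference of the centred log2 signals over 4 chips. Gpc1, Ehd1, Gdi2, Tcf25, Cops9, Tnrc6c, Tmem147 and Rtel1 came first, with differences of 0.010 to 0.023. Gdi2 had 3924, 3394 and 3180 in pools 1 to 3, against 3461 on the vehicle chip. Among the members themselves this difference was 0.03 for Acta2, the closest, and 0.20 for Tagln, the farthest. None of the 8 is in the muscle lists. Those lists hold few of the 6277 probe sets and the members were left out of the search, so this says little.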

How the data were processed

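RNA was isolated on RNeasy columns and hybridised as biotinylated cRNA, per the labels' protocols. The authors deposited linear signal intensity values, 1 for each probe set on each chip. How they were summarised and scaled is not given in the sources used here. Per the file headers, the 4 chips shared 1 lot, 1 wash protocol and 1 hybridisation day and used 4 fluidics modules, so module and chip cannot be told apart. Chip medians lay between 223.7 and 233.4 and Pearson's r between chips, over the tested probe sets, between 0.9614 and 0.9685.

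No normalization was added. A pseudocount of 16 was put on each signal before taking log2, and folds are on this scale. Probe sets with a mean under the 40th percentile (a signal of 144.7) were left out, leaving 9520. The 3 octreotide LAR chips were compared with the 1 vehicle chip in R 4.3.3 by limma 3.58.1 (lmFit and eBayes with a trend, two-sided), and p-values were adjusted by Benjamini-Hochberg over all 9520; the code was tested on simulated data. With 2 residual degrees of freedom, the lone vehicle chip takes its spread from the treated ones. Platform symbols were updated by Entrez ID to GRCr8 (12748 of 12783 matched). A gene of several probe sets was read by its brightest. All members were named. From other lists, genes past the threshold and the 3 with the smallest p could be named. Smtn, Flna, Tns1, Dcn, Mrtfa, Tacr2, Atp4a, Kit, Myh1, Myh2, Myh4 and Gdi2 were named after their values were seen or as controls. The members and lists were chosen with earlier results of these data known. Alternatives changed the pseudocount, filter, scaling, trend, probe set rule and treated chips. The number of chips limits the precision. Replicates are pools of different animals.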

Additional observations from a re-analysis of the deposited data

How the results depend on the processing

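No contractile probe set passed the limma test under any of the 10 alternatives tried (lowest adjusted p = 0.89), and 114 of 129 values kept their sign. Quantile normalization turned Des, Tagln and Tpm2 to log2 differences of -0.0073, -0.065 and -0.0021, and centring on the 75th percentile turned Tagln to -0.0002. Leaving out 1 treated pool at a time gave log2 differences of -0.14 to 0.0048 for Acta2, -0.10 to 0.13 for Actg2, -0.030 to 0.044 for Des, -0.021 to 0.13 for Myh11, -0.18 to 0.10 for Myl9, -0.23 to 0.15 for Tagln, -0.067 to 0.15 for Tpm2, -0.28 to 0.017 for Tpm1 on 1368724_a_at and -0.21 to 0.064 on 1370288_a_at. The median over the 10 genes then ran from -0.07 to 0.13, and the median SD among the treated chips left from 0.078 to 0.25. The number of probe sets called over the whole table was 0 of 15866 without the filter (776 at an unadjusted p under 0.05), 5 with quantile normalization, 5 with centring on the 75th percentile, 1 without the trend, and 31 to 55 without 1 treated pool. The count in the list of further contractile genes and in that of transcriptional regulators ran from 0 to 1 each without 1 pool. The cause of these shifts was not tested. The vehicle chip could not be left out. No paired analysis was possible, as there was 1 vehicle chip and no label pairs it with a treated pool. Signals near the filter level limit the dim Tpm1 probe sets.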
